A study of Danio rerio with 9 samples.

Results

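The mitochondrial ribosomal protein genes are the nuclear genes that encode the protein parts of the ribosome inside mitochondria. They were taken as every row of the zebrafish count table whose symbol starts with mrpl or mrps followed by a digit, which gave 74 of 24614 genes. By the letter of the symbol, 46 belong to the large subunit and 28 to the small subunit. The proteins are made in the cytoplasm and imported. Inside mitochondria they assemble with rRNAs of the mitochondrial genome into a ribosome that makes the few subunits of the respiratory chain and ATP synthase encoded there. Some of the proteins have bacterial homologues. The list used here counts 44 of the 74 as such and classes the other 30 as specific to mitochondria. It puts mrps18c among the 44 but mrps18a and mrps18b, which share its symbol stem, among the 30, so the split is approximate. The symbol is not a perfect guide, since the products of mrps30 and mrps18a sit in the large subunit in solved mammalian ribosomes, and the product of mrps36 is known in mammals as a subunit of the 2-oxoglutarate dehydrogenase complex.

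RNA was measured in whole zebrafish embryos injected with 1 of 3 morpholinos, control, dhps or eif5a1/2, with 3 libraries for each. Morpholinos are antisense oligomers directed at chosen transcripts. The labels put the RNA extraction 24 hours after treatment and the design text 24 hours after fertilization. The enzyme encoded by dhps starts the hypusine modification of the translation factor eIF5A, which eif5a and eif5a2 encode, so the comparisons set targeting of the enzyme beside targeting of the factor. The strain, the kind of morpholino, the number of embryos behind a library and whether libraries of a group came from separate clutches are not stated in the labels, so the p-values measure the spread between these libraries, which may be technical.

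The libraries held 15952644 to 17482536 reads assigned to genes. The transcript eif5a lay at 213 to 238 CPM (counts scaled by library size) in the eif5a1/2 libraries and at no less than 1050 CPM in any other (log2 -2.59 ± 0.16 against control, SE, n = 3 each; edgeR adjusted p = 0.000209). The transcript eif5a2 overlapped between these groups, at 147, 283 and 209 CPM in eif5a1/2 and 252, 368 and 215 CPM in control libraries (log2 -0.38 ± 0.26, edgeR adjusted p = 0.729), and its level was 369 to 417 CPM in dhps libraries. The dhps transcript lay at 8.27 to 10.3 CPM in the dhps libraries and 13 to 15.7 CPM in the controls (log2 -0.62 ± 0.13, edgeR adjusted p = 0.0508). Of 20 markers of embryonic tissues, 19 had reads in all libraries, among them actc1b of muscle, elavl3 of neurons and krt4 of epidermis, and hbae1 of blood was at 0 in control 2. The median log2 difference of the 20 markers was -0.3 in dhps against control, -0.17 in eif5a1/2 against control and 0.21 in eif5a1/2 against dhps, and their part in the results on the members was not tested. In RNA of whole embryos, fewer cells of a type and less RNA in each cell cannot be told apart. The libraries also differed along an axis that crosses the groups. The slope of a library's log2 deviations on transcript length was 0.0385 to 0.139 in the 3 dhps libraries, control 2 and eif5a1/2 2, and -0.128 to -0.0726 in control 1, control 3, eif5a1/2 1 and eif5a1/2 3. The members' levels moved with this axis. Values from fits that take it into account are given below for the members, the 2 subunits and some of the members that lead them. None are given for the further gene lists or the genes named from those lists.

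All 74 genes were expressed in every library and passed the filter on low counts. On a scale corrected for transcript length, TPM (abundance relative to all transcripts of the library), the mean over the 9 libraries ran from 8.28 to 212 TPM, with a median of 62.8 and a middle range of 39.8 to 91.8. The most abundant large-subunit transcripts were those of mrpl57, a small protein specific to mitochondria, at a mean of 212 TPM, and of mrpl30 and mrpl52 at 124 and 123 TPM. The least abundant were mrpl46, mrpl2 and mrpl1, at 21.1, 22.3 and 25.2 TPM; the protein of mrpl2 lies near the catalytic centre and that of mrpl1 forms the mobile stalk by which tRNA leaves. In the small subunit, mrps18c, mrps24 and mrps36 led with means of 123, 120 and 111 TPM. The lowest small-subunit transcripts were mrps33, mrps27 and mrps22, at 8.28, 15.9 and 24.6 TPM.

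**Figure D1:**
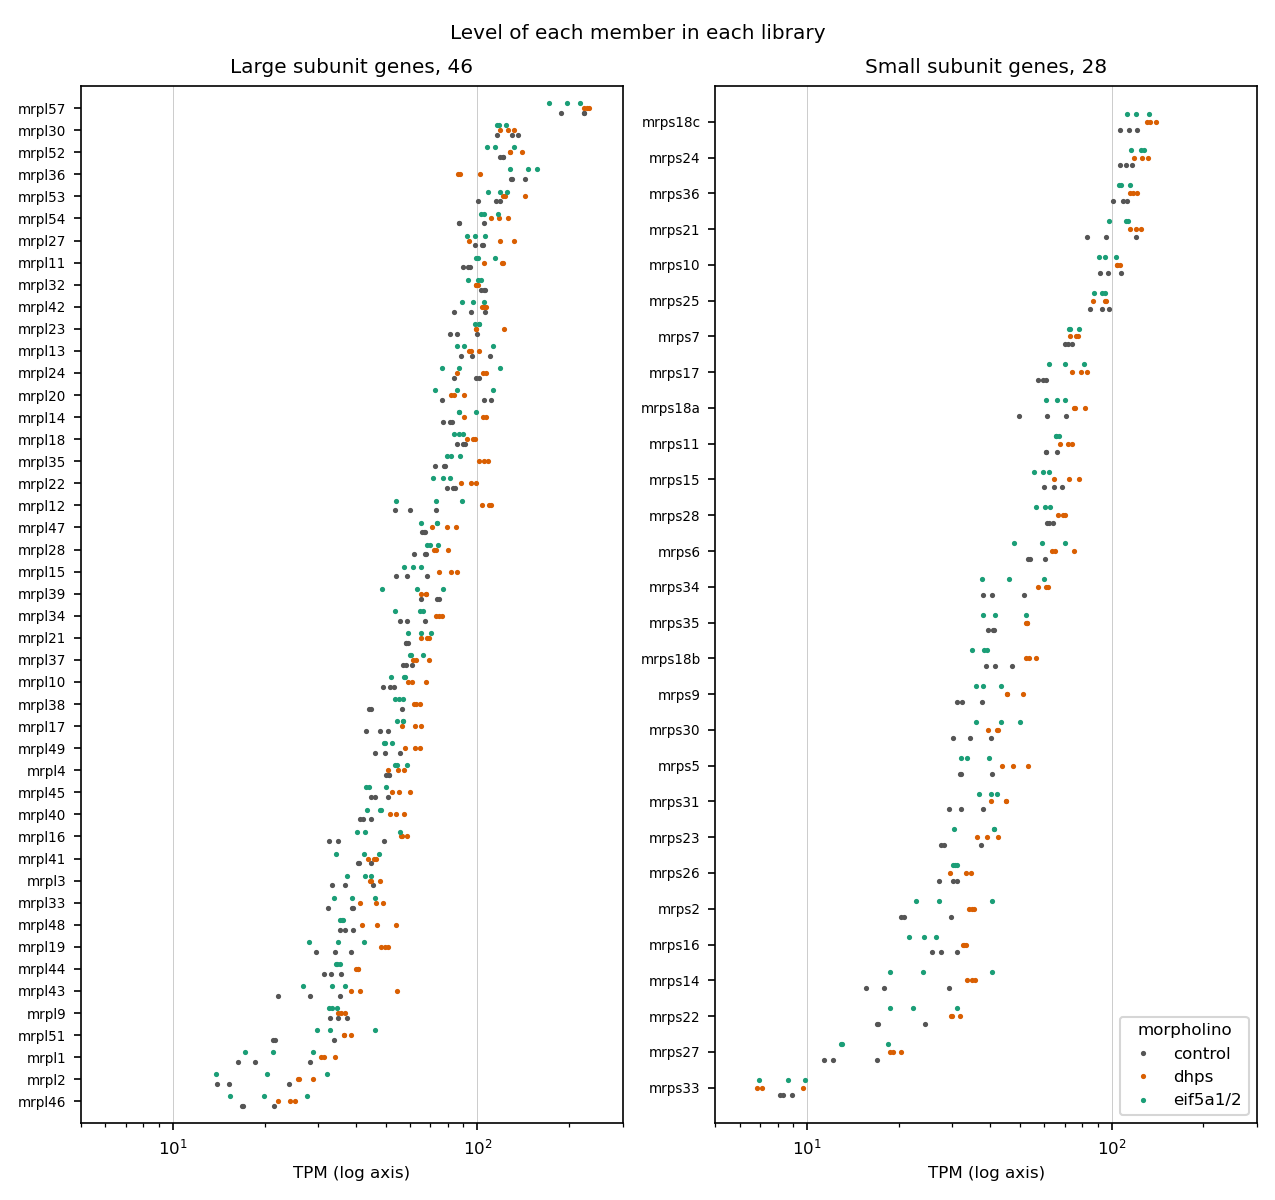
TPM of each of the 74 members (rows, ordered by mean TPM within each subunit) in each of the 9 libraries on a log axis, coloured by morpholino. Levels ran from 8.28 TPM on average for mrps33 to 212 TPM for mrpl57. For 51 of the 74 members all 3 dhps libraries lie to the right of all 3 controls, beside 39.8% of all genes tested. In CPM, 0 members lay above all controls in this way, beside 15.2% of all genes, and 5 lay below, beside 15.7%.

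The members' transcripts were short. All 74 lay below the median length of the 17031 genes tested, as judged by the ratio of counts to TPM, and 47 lay in the shortest decile. The length percentile had a median of 4.9 in the large subunit and 9.26 in the small subunit. The exception nearest the median was mrps33, at percentile 48.7. In the NCBI table of another assembly, GRCz12tu, the 74 genes fall on 22 chromosomes with 1 pair of members next to each other. The deposited expected count was a whole number, to within 1e-06, for every member in every library.

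Across the 9 libraries the members were high or low together. Measured as the median log2 difference of the members from their control means, control 1 and control 3 were at 0.14 and 0.27 and control 2 at -0.43. The dhps libraries were at -0.5, -0.29 and -0.28. Among the eif5a1/2 libraries the first was at 0.18, the second at -0.72 and the third at -0.11. Control 2 therefore lay among the dhps libraries, eif5a1/2 2 lay below all others, and neither morpholino group was separated from control. In control 2, 73 of 74 members were below their control mean, in eif5a1/2 2 72 and in dhps 1, 2 and 3 71, 67 and 66, against 5 in control 1, 0 in control 3, 12 in eif5a1/2 1 and 56 in eif5a1/2 3.

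**Figure D2:**
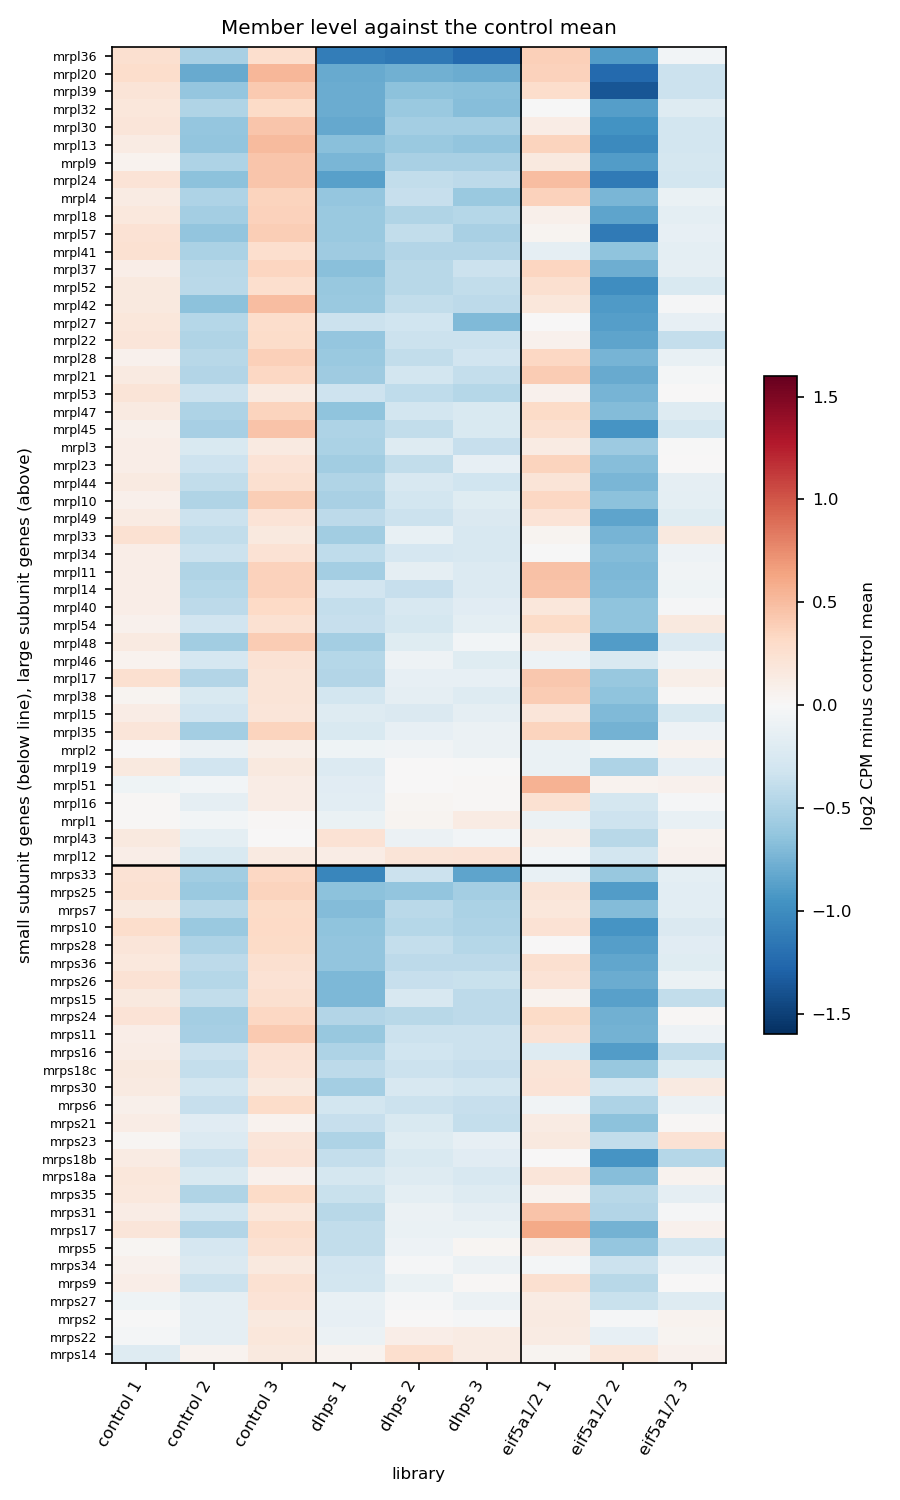
Difference in log2 CPM of each member (rows; large subunit above the line, small subunit below) from its mean over the 3 control libraries, in each of the 9 libraries (columns; blue is lower, red higher). Control 2 (73 of 74 members lower) and eif5a1/2 2 (72 lower) look like the dhps libraries, while mrpl12, mrps14 and mrps22 at the foot of each block show no such shift in the dhps columns (0.12 to 0.22, 0.06 to 0.27 and -0.1 to 0.13).

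Most members tracked the rest closely. The correlation of a member's log2 CPM with the median of the other members over the 9 libraries, which share depth and the length axis, was 0.95 at the median, and it was above 0.9 for 52 members (70.3%), against 7.86% of the other genes tested. The closest follower was mrps10. A few members did not follow. The gene mrps14, of a small-subunit protein with a bacterial homologue, had a correlation of -0.46. The genes mrpl12, whose protein forms the stalk that binds translation factors, mrpl1, mrpl51, mrpl2 and mrpl43 were at 0.39, 0.41, 0.49, 0.54 and 0.56.

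Large and small subunit genes had medians near each other in each library. The large-subunit medians were -0.46 in control 2, -0.53 to -0.26 in dhps and -0.74 in eif5a1/2 2. Those of the small subunit were -0.36, -0.43 to -0.25 and -0.64. Large-subunit TPM summed to 2.11 ± 0.12 times the small-subunit TPM in control libraries, 2.02 ± 0.017 times in those of dhps and 2.05 ± 0.13 times in those of eif5a1/2 (SD, n = 3 each). The 3 ranges overlapped, with 1.99 to 2.22 in control, 2 to 2.03 in dhps and 1.91 to 2.17 in eif5a1/2.

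**Figure D3:**
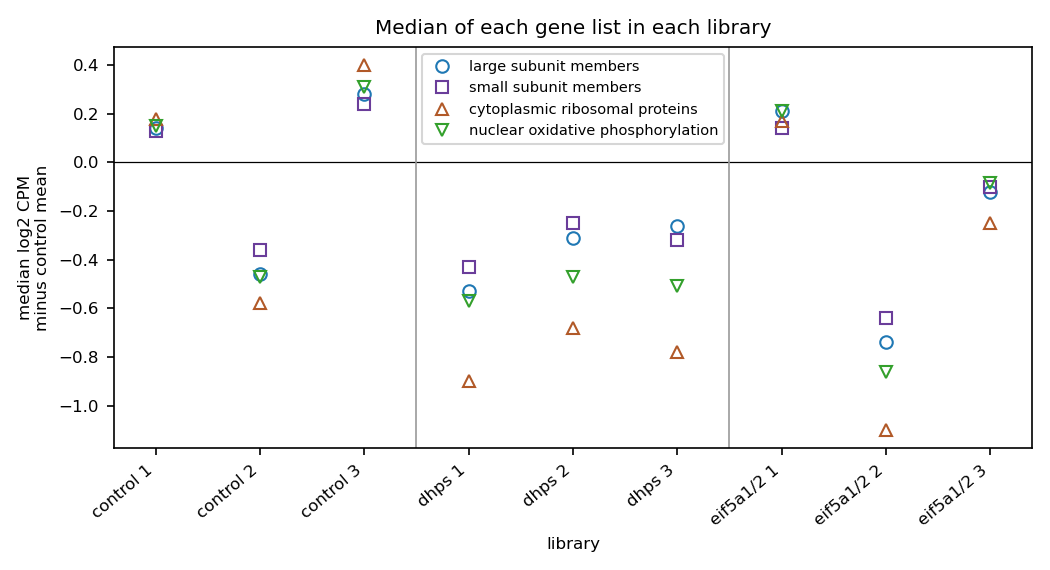
Median log2 difference from the control mean in each library for large-subunit members, small-subunit members, cytoplasmic ribosomal protein genes and nuclear oxidative phosphorylation genes. All 4 lists are highest in control 3 and lowest in eif5a1/2 2, and the cytoplasmic ribosomal protein genes have the widest range, from 0.4 in control 3 to -1.1 in eif5a1/2 2.

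The first comparison asks how these genes stand when the hypusinating enzyme is targeted. In dhps embryos 69 of 74 members (93.2%) had a negative log2 difference from control, against 49.8% of all genes tested. Their median was -0.37, with a range of -1.21 to 0.17, while the median of all genes was 0.0026. By edgeR's quasi-likelihood test with Benjamini-Hochberg adjustment over all genes, 0 of the 74 were called at an adjusted p under 0.05, where 1.29% of all genes were called. Without adjustment, 8 members lay lower at a p under 0.05 and 0 lay higher (10.8%), while 19.5% of all genes passed, 11.4% lower and 8.11% higher. DESeq2 called 1 member lower (3.25% of genes called lower) and limma-voom 0 (1.21% of genes called). The CPM of dhps and control libraries did not overlap for 5 members, mrpl36, mrpl32, mrpl39, mrpl9 and mrps21, all lower; this is 6.76% of members against 30.9% of all genes, 15.7% lower and 15.2% higher. The members thus leaned one way, while fewer of them than of genes at large stood clear of the spread of the controls. The median was -0.39 for members listed with bacterial homologues and -0.33 for those listed as specific to mitochondria, and -0.37 and -0.35 for the large and small subunit.

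The member that stood furthest out was mrpl36 (gene ID 100093703), which encodes a very small zinc-binding protein of the large subunit with a bacterial homologue. Its level was 98.3, 57.3 and 99.6 CPM in control 1, 2 and 3, and 38.1, 37.1 and 35 CPM in dhps 1, 2 and 3. In eif5a1/2 1, 2 and 3 it was 108, 44.4 and 79.6 CPM. Every dhps library was thus below every other library, control 2 and eif5a1/2 2 included. The log2 difference of dhps from control was -1.21 ± 0.31 (SE), short of the threshold (edgeR adjusted p = 0.105). The authors' deposited table lists it at -1.21 with a q-value of 5.97e-06. DESeq2 called it (adjusted p = 0.00534), as did the fit that had the length slope as a covariate (-0.65, adjusted p = 0.00916) and the fit with the length trend removed (-0.73, adjusted p = 0.0424). Of 9 edgeR fits with 1 library removed, it passed in 2, without control 2 (-1.44, adjusted p = 0.0384) and without eif5a1/2 2 (-1.21, adjusted p = 0.0176). Its sign was negative under all 24 other settings tried, with values from -1.44 to -0.54.

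The other members with the smallest p values in each subunit were short of the threshold in the same way. The gene mrpl32, of another zinc-binding large-subunit protein, had 78.7, 50 and 85.9 CPM in control and 40.1, 45.9 and 43.4 CPM in dhps libraries. The groups did not overlap, though control 2 stood just above the dhps libraries (log2 -0.73 ± 0.25, edgeR adjusted p = 0.182). The genes mrpl41 and mrpl30 were at -0.54 ± 0.21 and -0.70 ± 0.31 (edgeR adjusted p = 0.222 and 0.251). In the small subunit, mrps33 had 34.6, 20 and 37.1 CPM in control and 14.3, 23.2 and 16.4 CPM in dhps libraries, so that dhps 2 lay above control 2 (-0.76 ± 0.26, edgeR adjusted p = 0.184). The genes mrps7, mrps25 and mrps30 were at -0.58 ± 0.24, -0.67 ± 0.30 and -0.37 ± 0.17 (edgeR adjusted p = 0.24, 0.254 and 0.264). Among the lowest values were also mrpl20 at -0.90 ± 0.41 and mrpl39 at -0.77 ± 0.38 (edgeR adjusted p = 0.259 and 0.284). In mrpl20 the dhps libraries had 37, 38 and 37.3 CPM and control 2 had 37.1, against 78.9 and 94.1 CPM in control 1 and 3. The authors' deposited table lists 4 members at a q-value under 0.05 (4.86% of genes listed), mrpl36, mrpl32, mrpl39 and mrpl20, all of the large subunit and all lower, with q-values of 5.97e-06, 0.0187, 0.0328 and 0.0377. These values depended on whether the length slope was in the fit. Since all 3 dhps libraries have positive slopes, the part of morpholino and that of length axis cannot be told apart. With the length slope in the fit, mrpl32, mrpl41, mrpl30, mrpl20 and mrpl39 were at -0.27, -0.18, -0.12, -0.1 and -0.04, and mrps33, mrps7, mrps25 and mrps30 at -0.35, -0.14, -0.11 and -0.1, and none of these 9 was called.

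At the other end, mrpl12, mrps14 and mrps22 had the highest values in dhps embryos. The stalk gene mrpl12 had 93.4, 72.8 and 95.8 CPM in control and 94, 100 and 101 CPM in dhps libraries, which overlap (log2 0.17 ± 0.14, edgeR adjusted p = 0.471). It was called higher when the length slope was a covariate (0.37, adjusted p = 0.0355). The gene mrps14 had 13.5, 16.3 and 17.6 CPM in control and 16.4, 19 and 17.1 in dhps libraries (0.15 ± 0.12, edgeR adjusted p = 0.477), and mrps22 was at 0.04 ± 0.13 (edgeR adjusted p = 0.858).

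**Figure D4:**
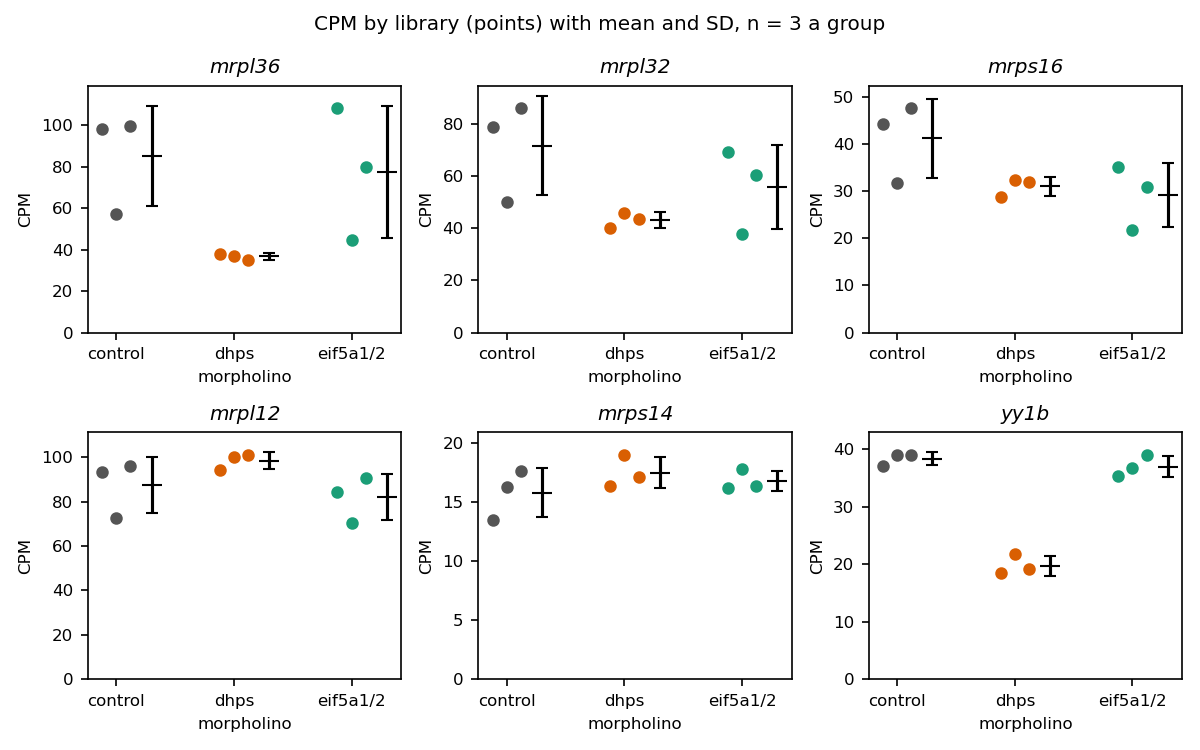
CPM of 5 members and of the transcription factor gene yy1b in each library (points, in the order 1, 2, 3) with the mean and SD of each group (n = 3). The dhps libraries of mrpl36 (35 to 38.1 CPM) and of yy1b (18.4 to 21.7 CPM) lie below all other libraries, while mrpl12 and mrps14 overlap between all groups apart from mrpl12 in eif5a1/2 and dhps.

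The direction of the list in dhps embryos depends on the scale. Of all reads, the members held 0.408% ± 0.028 in control libraries, 0.41% ± 0.015 in those of dhps and 0.395% ± 0.042 in those of eif5a1/2 (SD, n = 3 each), and all ranges overlap. With library totals as the only scaling, the median of the members in dhps against control was 0.028, where the median of all genes was 0.36. Summed over the 74 genes, TPM was 4639, 4776 and 4524 in control 1, 2 and 3. The sums were 5363, 5318 and 5491 for dhps 1, 2 and 3, and 4823, 4875 and 4828 for eif5a1/2 1, 2 and 3. The dhps sums were above all others, and each eif5a1/2 sum was above each control sum. By TPM, 51 of 74 members had all dhps libraries above all controls, against 39.8% of all genes, and 2, mrpl36 and mrpl32, had all dhps libraries below, against 1.61%. In TPM, mrpl12 had 59.9, 73.3 and 53.8 in control and 111, 104 and 109 in dhps libraries. The levels of mrpl36 were 144, 130 and 129 TPM in control, 102, 87.7 and 86.2 TPM in dhps and 157, 128 and 146 TPM in eif5a1/2 libraries. On log2(TPM + 1), limma gave a median of 0.26 over the members and 0.36 over all genes, and called 0 members (0.429% of genes called), with 31 at an unadjusted p under 0.05 beside 26.6% of all genes. Less the median of all genes, the median of the members was -0.37 with TMM scaling, -0.34 under library totals and -0.1 in TPM, while its own sign was negative with TMM scaling and positive on the other 2 scales. Reads of cytoplasmic ribosomal protein genes made up 18.6% to 20.4% of dhps libraries, 21.1% in control 2 and 27.8% and 30% in control 1 and 3, and their part in these scale differences was not tested.

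Relative to lists of like kind, the members were less low. In dhps against control, the 80 cytoplasmic ribosomal protein genes had a median of -0.85, with all 80 negative, and the 83 nuclear genes of oxidative phosphorylation a median of -0.58, with 82 negative. Per 100 reads of cytoplasmic ribosomal protein genes, the members had 1.42 to 1.78 reads in control, 2.04 to 2.17 in dhps and 1.57 to 2 in eif5a1/2 libraries. Per 100 reads of the oxidative phosphorylation genes they had 22.3 to 22.7 in control, 23.7 to 25.1 in dhps and 22.4 to 23.3 in eif5a1/2 libraries. In both ratios each dhps library lay above each library of the other groups, and eif5a1/2 2 came closest. Control 2, of positive length slope, had 1.78 in the first ratio, against 1.51 and 1.42 in control 1 and 3. In the second ratio control 2 had 22.7, against 22.6 and 22.3. The part of the length axis in these differences was not tested.

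The size of the dhps difference moved with the libraries. Without control 2 the median was -0.54 and 4 members were called lower by edgeR, mrpl32, mrpl36, mrpl41 and mrps33 (2.46% of genes called lower). In other fits mrpl36 was the only member called lower: in the groups compared alone (1.04% of genes called lower), without eif5a1/2 2 (2.18%), with the length slope (2.79%), with the length trend removed (1.26%), with 1 surrogate variable (3.18%) and in the libraries of positive slope (0.837%). Members called higher were mrpl12 with the length slope (2.57% of genes called higher), and mrpl12, mrpl35 and mrps17 with the surrogate variable (2.99%). Without control 1 or control 3 the median was -0.32 or -0.26, with 0 called (0.336% or 0.341% of genes called). With control 2 and eif5a1/2 2 both left out, a choice made because they stand apart on the axis that the members follow, 59 members were called lower and 0 higher, where 18.4% of all genes were called lower and 37.1% in either direction; since that choice follows the members, the count supports nothing. With that slope in the fit the median was 0.055 and 30 of 74 members were negative. Over the 5 libraries with a positive slope the median was 0.036. There control 2, which lay among the dhps libraries in the members, is the lone control. That choice follows the members too, so this median supports nothing. Among the 1704 genes of the shortest decile the median of all genes was -0.41 and that of the 47 members in it -0.45, and in the next decile -0.17 over all genes and -0.26 over 20 members. In the third decile it was -0.074 over all genes and -0.37 over 5 members, in the fourth the 1 member was at -0.088 beside -0.026, and in the fifth mrps33 was at -0.76 beside 0.034. Morpholino and length axis overlap in these libraries, since all 3 dhps libraries have positive slopes, and the part of each cannot be told apart.

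The second comparison asks the same of embryos in which the factor itself was targeted. In eif5a1/2 embryos 66 of 74 members (89.2%) had a negative log2 difference from control, against 48% of all genes, with a median of -0.18, a range of -0.50 to 0.24 and a median of 0.013 over all genes. EdgeR called 0 members (0.153% of genes called), and without adjustment 1 lay lower and 0 higher at a p under 0.05 (9.02% of all genes passed, 4.8% lower and 4.23% higher). DESeq2 and limma-voom called 0 as well (1.21% and 0.117% of genes called), and the authors' deposited table lists 0 at a q-value under 0.05 (0.287% of genes listed). Only mrpl1 had CPM without overlap, lower, against 12.4% of all genes, 6.65% lower and 5.78% higher. In TPM, 7 members lay above all controls (4.63% of all genes) and 1, mrpl32, below (1.34%). The medians were -0.18 and -0.19 in the large and small subunit. The median was 0.014 without eif5a1/2 2 and -0.43 without eif5a1/2 1. With control 2 left out as well as eif5a1/2 2, a choice made on the axis the members follow, it was -0.16, with 61 of 74 members negative. The libraries of negative slope alone gave -0.15, with 59 negative, but they are the same control and eif5a1/2 libraries, so this is no separate result. With the replicate number as a block in these 2 groups, a pairing taken from the data, it was -0.19, with 69 negative. Under library totals alone it was -0.031, beside 0.18 for all genes. On log2(TPM + 1) its sign was positive, at 0.086 beside 0.17 for all genes, with 22 of 74 members negative. When the length slope was in the fit the median was -0.1 and 2 members were called lower, mrps16 and mrps18b (2.49% of genes called lower). With 1 surrogate variable the median was -0.038, with 46 of 74 members negative, and mrps16 was called lower (2.69%).

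The lowest value in eif5a1/2 embryos was that of mrps16, a small-subunit gene with a bacterial homologue. It had 44.3, 31.8 and 47.6 CPM in control 1, 2 and 3 and 35.1, 21.8 and 31 CPM in eif5a1/2 1, 2 and 3. The groups overlapped, since eif5a1/2 1 lay above control 2, but each eif5a1/2 library was below the control library of the same number. The log2 difference was -0.50 ± 0.20 (edgeR adjusted p = 0.487). The labels number the libraries but state no pairing. Pairing by number was taken from these data, where deviations of same-numbered libraries in these 2 groups correlated at 0.4, 0.76 and 0.32. In a fit added after seeing the data, with the replicate number as a block in these 2 groups, mrps16 was called lower (-0.50, edgeR adjusted p = 0.0479, with 1.17% of genes called lower). It was also called when the length slope was a covariate (-0.42, edgeR adjusted p = 0.00897), and with the block over all 9 libraries it was not (edgeR adjusted p = 0.445).

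Next in the small subunit were mrps18b at -0.43 ± 0.23, mrps15 at -0.39 ± 0.25 and mrps28 at -0.35 ± 0.25 (edgeR adjusted p = 0.646, 0.72 and 0.746). In the large subunit, mrpl1 had 28.8, 27.7 and 28.9 CPM in control and 26.8, 22.6 and 26.2 CPM in eif5a1/2 libraries, a narrow gap with no overlap (-0.18 ± 0.11, edgeR adjusted p = 0.712). The genes mrpl41, mrpl19 and mrpl39 were at -0.34 ± 0.21, -0.25 ± 0.16 and -0.40 ± 0.38 (edgeR adjusted p = 0.717, 0.718 and 0.788). The highest values were those of mrpl51, mrps14 and mrps2, at 0.24 ± 0.15, 0.09 ± 0.13 and 0.05 ± 0.11 (edgeR adjusted p = 0.718, 0.846 and 0.907). For mrpl51 the value rests on eif5a1/2 1, with 29.1 CPM, while the other two libraries had 20.6 and 20.8 CPM, inside the control range of 18.9 to 21.7 CPM.

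The third comparison sets the 2 morpholinos against each other. In eif5a1/2 against dhps embryos 61 of 74 members had a positive log2 difference and 13 a negative one (17.6% negative, against 50% of all genes), with a median of 0.22 and a range of -0.27 to 1.07. EdgeR called 0 members (1.77% of genes called), and without adjustment 2 lay higher and 0 lower at a p under 0.05 (14.5% of all genes passed, 8.34% higher and 6.19% lower). DESeq2 called 1 higher (2.71% of genes called higher) and limma-voom 0 (1.73% of genes called). For 3 members the CPM did not overlap, against 20.9% of all genes, 10.8% higher and 10.1% lower. These were mrpl36 and mrpl51, higher, and mrpl12, lower. For mrpl51 the gap was narrow, with 20.6 CPM in eif5a1/2 2 above 20.1 CPM in dhps 3, while eif5a1/2 1 was at 29.1 CPM. In TPM most members that stood clear lay lower, with 30 members below all dhps libraries (13.2% of all genes) and 1, mrpl36, above (2.51%).

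Again mrpl36 led, at 1.07 ± 0.31 (edgeR adjusted p = 0.138; DESeq2 adjusted p = 0.0224). The authors' deposited table lists it at 1.09 with a q-value of 0.0221, as the 1 member under 0.05 there (2% of genes listed). It was called when the length slope was a covariate (0.59, edgeR adjusted p = 0.00779) and in 1 of 9 fits with a library removed, that without eif5a1/2 2 (1.35, edgeR adjusted p = 0.0147; 3.14% of genes called higher). In TPM and in CPM alike, its dhps libraries were below both other groups without overlap. The stalk gene mrpl12 was at -0.27 ± 0.14 (edgeR adjusted p = 0.443). Its eif5a1/2 libraries, at 84.5, 70.4 and 90.8 CPM, were all below the dhps libraries.

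The remaining large-subunit genes with small p were mrpl51 at 0.29 ± 0.15 and mrpl1 at -0.20 ± 0.11 (edgeR adjusted p = 0.424 and 0.453), and mrpl20 and mrpl4 had high values of 0.53 ± 0.40 and 0.44 ± 0.28 (edgeR adjusted p = 0.604 and 0.534), while mrpl19 was at -0.17 ± 0.16 (edgeR adjusted p = 0.683). In the small subunit by symbol, mrps30, mrps33, mrps23 and mrps7 were at 0.40 ± 0.17, 0.43 ± 0.26, 0.28 ± 0.19 and 0.36 ± 0.24 (edgeR adjusted p = 0.323, 0.501, 0.544 and 0.565). When the length slope was a covariate, 7 members were called lower (4.33% of genes) and mrpl36 higher (4.45%), and the median was -0.14, against the sign of 0.22. The surrogate variable gave 10 lower (5.4% of genes) and mrpl36 higher (5.68%), and removal of the length trend gave mrpl36 higher (1.12%). With that trend removed the median of the members was 0.023, beside 0.064 for all genes. In the libraries of positive slope the median was -0.37. There eif5a1/2 2, which lay below all other libraries in the members, is the lone library of its group. That choice follows the members, so this median supports nothing. Without control 2 and eif5a1/2 2, again chosen on the axis the members follow, 47 were called, all higher (15% of genes higher, 28.8% in either direction). Under library totals alone the median was -0.042 beside -0.19 for all genes.

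**Figure D5:**
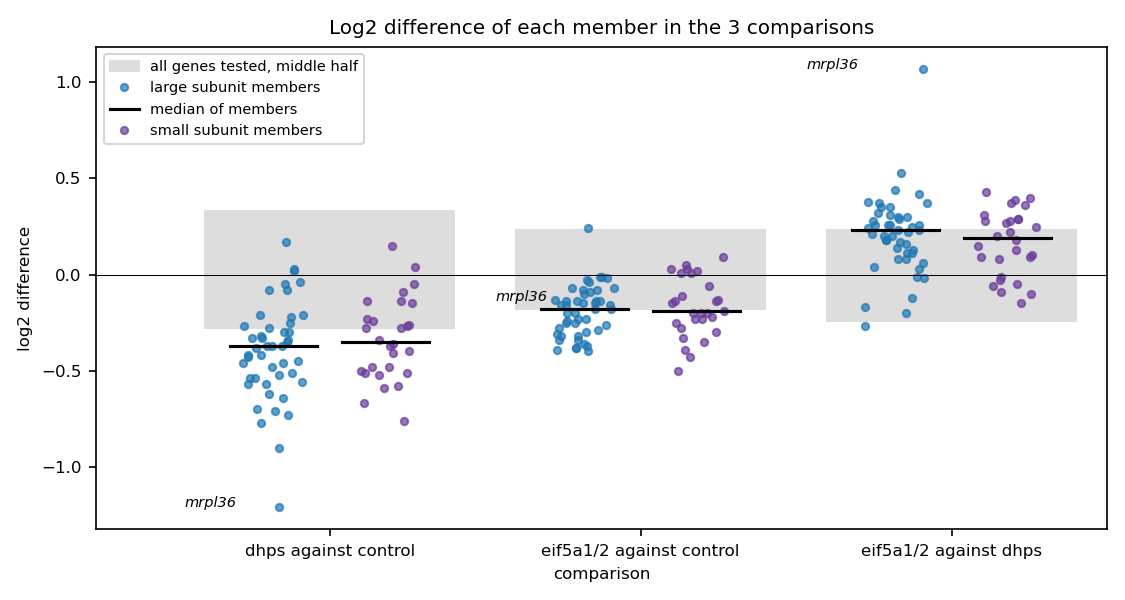
Log2 difference of each large-subunit and small-subunit member in the 3 comparisons, with the median of each subunit (black line) and the middle range of all genes tested (grey). The medians are -0.37 and -0.35, -0.18 and -0.19, and 0.23 and 0.19, and mrpl36 lies apart at -1.21 in dhps against control and at 1.07 in eif5a1/2 against dhps.

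Other genes of mitochondrial translation were looked at as lists beside the members. Mitoribosomal proteins under other names (dap3, ptcd3, chchd1, aurkaip1, gadd45gip1 and ict1) had medians of -0.40, -0.19 and 0.15 in dhps against control, eif5a1/2 against control and eif5a1/2 against dhps, close to the members. EdgeR called 0 of the 6 in each comparison, beside 1.29%, 0.153% and 1.77% of all genes. The smallest p was that of ict1, a peptidyl-tRNA hydrolase built into the large subunit, in the first (-0.59 ± 0.27, edgeR adjusted p = 0.268). In the other two it was that of ptcd3, an RNA-binding protein of the small subunit (0.40 ± 0.13 and 0.35 ± 0.13, edgeR adjusted p = 0.376 and 0.249).

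Lists of assembly, translation factor, tRNA, mitochondrial DNA expression and import genes lay nearer to all genes than the members did in dhps embryos. Transcript lengths of these lists were not compared with those of the members. Medians were -0.12 for 24 assembly factors, -0.14 for 15 translation factors and -0.11 for 20 genes that charge or modify mitochondrial tRNAs, most of them aminoacyl-tRNA synthetases. They were -0.15 for 15 genes of mitochondrial DNA expression and -0.059 for 23 import genes. EdgeR called 0 genes of these lists in any of the 3 comparisons, beside 1.29%, 0.153% and 1.77% of all genes. The same medians were, for eif5a1/2 against control, -0.091, -0.11, 0.031, 0.0072 and -0.11. For eif5a1/2 against dhps they were 0.13, 0.027, 0.15, 0.14 and -0.053. The smallest p in dhps against control belonged to ybey, of rRNA processing (-0.71 ± 0.21), lrpprc, which stabilises mitochondrial mRNAs (0.24 ± 0.11), and tars2, the threonyl-tRNA synthetase (-0.47 ± 0.14). Those of the other lists were peo1, the Twinkle helicase (0.40 ± 0.16), and hspa9, the HSP70 of the matrix (0.71 ± 0.20). Their edgeR adjusted p were 0.143, 0.266, 0.146, 0.225 and 0.122. Set against control, the eif5a1/2 group had nsun4, tsfm, mars2, mterf1 and grpel1 as the smallest p of these lists, at -0.36 ± 0.15, -0.16 ± 0.11, 0.38 ± 0.18, 0.56 ± 0.28 and -0.28 ± 0.14 (edgeR adjusted p = 0.533, 0.742, 0.597, 0.607 and 0.622). Set against dhps, it had ybey, lrpprc, fars2, elac2 and tomm22, at 0.43 ± 0.21, -0.25 ± 0.11, 0.97 ± 0.43, 0.37 ± 0.12 and -0.47 ± 0.18 (edgeR adjusted p = 0.397, 0.344, 0.339, 0.192 and 0.259).

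Of 11 regulators known to act on nuclear genes for mitochondria, edgeR called 1 in dhps against control (1.29% of all genes), 0 in eif5a1/2 against control (0.153%) and 2 in eif5a1/2 against dhps (1.77%). The gene yy1b, 1 of 2 zebrafish genes for the transcription factor YY1, had 37.1, 39 and 39 CPM in control, 18.4, 21.7 and 19.1 CPM in dhps and 35.3, 36.7 and 38.9 CPM in eif5a1/2 libraries. Control 2 and eif5a1/2 2 lay with their groups here and not with the dhps libraries. It fell by 0.96 ± 0.10 on the log2 scale in dhps against control (edgeR adjusted p = 0.00307) and was higher by 0.91 ± 0.10 in eif5a1/2 against dhps (edgeR adjusted p = 0.00233), and both calls were made in 9 of 9 fits with a library removed. Neither held in the compared groups alone with the replicate block (edgeR adjusted p = 0.071 and 0.178), where 0.145% and 0.114% of all genes were called. Deviations of same-numbered libraries correlated there at -0.34, -0.41 and 0.1, and at -0.4, -0.29 and 0.12. On log2(TPM + 1) yy1b was not called (-0.31 and 0.52, limma adjusted p = 0.386 and 0.6). Its paralog yy1a was at 0.07 ± 0.12 and -0.02 ± 0.12 (edgeR adjusted p = 0.732 and 0.964). The gene mycb, a MYC paralog, was lower in eif5a1/2 than in dhps embryos (-0.59 ± 0.09, edgeR adjusted p = 0.0159; in 4 of 9 fits with a library removed) and at 0.44 ± 0.09 in dhps against control (edgeR adjusted p = 0.0556). The regulators nrf1 and gabpa were at -0.29 ± 0.11 and -0.35 ± 0.13 in dhps against control (edgeR adjusted p = 0.21 and 0.203). Going the other way there, pprc1 and ppargc1b were at 0.51 ± 0.15 and 0.44 ± 0.2 (edgeR adjusted p = 0.14 and 0.267). Over the 11 regulators the median in dhps against control was -0.023, with 6 negative and 5 positive. In eif5a1/2 against control mycb had the smallest p of the list (-0.14 ± 0.09, edgeR adjusted p = 0.719). The coactivator gene ppargc1a was too low to be tested, at 0 to 0.645 CPM.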

How the data were processed

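Polyadenylated RNA of 9 libraries was sequenced, and the submitters' processing notes name the GRCz11 assembly; no aligner, counter or strand setting was given in the sources used here. The authors deposited expected counts and TPM per gene and library, per the file headers. Per the same headers, a second deposited table gives the authors' log2 fold changes, p-values and q-values, and for dhps the −log10 of the q-value, which was not used. Expected counts were rounded, since the planned test needs counts. The main test was edgeR's quasi-likelihood test with robust dispersion (edgeR 4.0.16, R 4.3.3), with TMM scaling, after filterByExpr left 17031 genes, in 1 fit to 9 libraries with 6 residual degrees of freedom. Adjustment was by Benjamini-Hochberg across the genes tested, and genes under 0.05 are called. SEs come from the F statistic, and CPM uses the scaled library sizes. Median log2 values per library use a prior count of 2. DESeq2 1.42.0, limma 3.58.1 and sva 3.50.0 served as alternatives. The filter kept at least 99.84% of each library's reads, and the common biological coefficient of variation was 0.225. The edgeR test of dhps against control was checked on simulated data that held no length axis. The other comparisons and fits were not checked in this way.

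The members, lists, tests and settings were chosen with earlier results of these data known; the TPM scale, the fit with 2 libraries left out, the block in 2 groups alone and the list of oxidative phosphorylation genes were added after seeing the data. Named by rule were, in each comparison, the 4 members of each subunit with the smallest p and the 3 highest and 3 lowest log2 values, the 3 highest and 3 lowest members of each subunit by mean TPM, members under 0.05 in the authors' table, and the smallest p of each further list. Others, among them mrps21, mrps10, mrpl43 and the regulators nrf1, gabpa, pprc1 and ppargc1b, were named after their values were seen. Deviations of same-numbered libraries correlated at 0.4, 0.76 and 0.32 in eif5a1/2 and control, so the replicate number was taken to pair these 2 groups, a pairing that comes from the data. In dhps and control the values were -0.34, -0.41 and 0.1, and in eif5a1/2 and dhps -0.4, -0.29 and 0.12. Symbols of the further lists were matched in the table or through the current symbols of the NCBI table of GRCz12tu, which holds 22941 of the 24614 IDs.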

Additional observations from a re-analysis of the deposited data

How the results depend on the processing

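The limits of these values are the 3 libraries a group and the length axis that crosses the groups; depth is not limiting, as each member had reads in every library. In dhps against control the median over members, large subunit and small subunit was 0.028, 0.024 and 0.043 under library totals alone, 0.055, 0.064 and 0.027 when the slope was a covariate, 0.12, 0.13 and 0.081 with 1 surrogate variable, and 0.036, 0.036 and 0.046 in the libraries with a positive slope alone. With the length trend removed it was -0.11, -0.076 and -0.17, beside -0.098 for all genes. In eif5a1/2 against dhps it was -0.14, -0.15 and -0.11 with the length slope, -0.14, -0.14 and -0.11 with the surrogate variable and -0.37, -0.41 and -0.33 in the libraries with a positive slope, and under library totals alone it was -0.064 for the small subunit. With the length trend removed it was 0.023, 0.027 and -0.011 in that comparison, beside 0.064 for all genes. On log2(TPM + 1) the medians were 0.26, 0.25 and 0.28 in dhps against control and -0.16, -0.14 and -0.18 in eif5a1/2 against dhps. The medians of all genes on that scale were 0.36 and -0.19 in these 2 comparisons. In eif5a1/2 against control the members' medians were 0.086, 0.083 and 0.095 on that scale, and -0.038, -0.024 and -0.043 with 1 surrogate variable. They were -0.33, -0.36 and -0.26 in the libraries with a positive slope, where each of these groups has 1 library. The cause of these differences was not tested. The medians in the libraries with a positive slope support nothing, since those libraries were chosen on the axis the members follow.

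The number of members called in dhps against control, 0 in the main fit, was 1 by DESeq2 (5.3% of genes called), in the 2 groups alone (1.84%) and with the length trend removed (1.9%), 2 with the length slope (5.37%), 4 with the surrogate variable (6.17%) and 59 with control 2 and eif5a1/2 2 both left out (37.1%). In eif5a1/2 against control it was 2 with the length slope (4.6%), 1 with the surrogate variable (5.23%) and 1 with the replicate block in 2 groups alone (2.21%). In eif5a1/2 against dhps it was 1 by DESeq2 (4.76%) and with the length trend removed (1.9%), 8 with the length slope (8.78%), 11 with the surrogate variable (11.1%), 6 in the libraries with a positive slope (3.25%) and 47 with the 2 libraries left out (28.8%). The counts with 2 libraries left out support nothing, since those libraries were chosen on the axis the members follow. No counts are given for the libraries with a positive slope, where control and eif5a1/2 have 1 library each.

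Leaving out 1 library at a time gave 0 to 4, 0 to 0 and 0 to 1 members called in the 3 comparisons, and medians of -0.54 to -0.26, -0.43 to 0.014 and -0.012 to 0.42. The large subunit gave -0.57 to -0.26, -0.44 to 0.015 and -0.02 to 0.44, and the small subunit -0.5 to -0.25, -0.37 to 0.0081 and -0.012 to 0.4. The number of all genes called, 220, 26 and 302, ran from 44 to 807, 5 to 19 and 66 to 850 in these fits, was 902, 206 and 811 by DESeq2 and 914, 783 and 1495 with the length slope. With the replicate number as a block over all 9 libraries the medians were -0.34, -0.18 and 0.17 and 0 members were called, beside 156, 14 and 183 of all genes. RLE scaling, no filter and a stricter filter called 0 members, with medians of -0.37 to -0.36, -0.19 to -0.18 and 0.21 to 0.22. Of all genes they called 0.817% to 1.57%, 0.0935% to 0.185% and 0.956% to 2.04%.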
